A study of Mus musculus with 12 samples.

Results

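The transcripts described here encode 10 regulators of the eosinophil lineage: the C/EBP family members Cebpa, Cebpb, Cebpd, Cebpe and Cebpg, the zinc finger factors Gata1 and Gata2, the ETS factor Spi1 (PU.1), and the inhibitors Trib1 and Id2. They were taken by gene symbol from a table of 39666 genes, and all 10 passed the filter on low counts that left 18302 genes for testing. RNA came from airway eosinophils of C57BL/6 wild-type mice, 8 to 12 weeks old, all of which received ovalbumin. Sensitization used 20 µg ovalbumin with 4 mg alum on days 0 and 7, nebulized 1% ovalbumin was given for 40 minutes on days 16 to 18, and lungs were lavaged on day 19. Lavage fluid was pooled between mice, and the sorted eosinophils had high side scatter, CD45, CD11b and Siglec-F, and no more than middle levels of CD11c and Ly6G. Each of 6 pools was split by sorting into TREM-1+ cells and TREM-1- cells, 12 libraries in all, so that each comparison is between cells of the same lavage. TREM-1 is an activating receptor of myeloid cells. Both fractions carry the same ovalbumin treatment and differ by a surface antigen, and no samples of untreated mice were analysed here.

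C/EBP proteins are leucine zipper factors that bind DNA as dimers, and C/EBP-epsilon is needed in mice for mature eosinophils and for the late granules of neutrophils. GATA-1 is required for eosinophil production in mice through an autoregulatory site in its own gene, and PU.1 and C/EBP-alpha act with it in the commitment of progenitors. GATA-2 is best known in progenitors, mast cells and basophils. TRIB1 directs C/EBP-alpha to degradation with the ubiquitin ligase COP1, and ID2 blocks DNA binding by E proteins.

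Trem1, which checks the sort, averaged 93.1 ± 20.0 CPM in TREM-1+, against 30.7 ± 8.12 CPM in TREM-1- libraries (SD, n = 6 each; CPM is the count scaled to a common library size). Its ranges did not overlap. TREM-1+ libraries had 8626701 (lavage 4) to 19274912 counts in total and TREM-1- libraries 16513387 to 21234053, and the total was lower in the TREM-1+ library of each lavage. All 10 eosinophil markers were detected, with a summed level of 8211 to 12871 CPM in TREM-1+, against 9041 to 13864 CPM in TREM-1- libraries. Of these 10 markers 7 were called lower and 2 higher, Alox15 and Prg2, and the sum was lower in TREM-1+ in all 6 pairs. Cd24a was the largest part of that sum, at 4404 CPM in TREM-1+, against 5017 CPM in TREM-1- libraries. The sum depends on how libraries were scaled and was not computed with library totals alone. Lavages 1 and 2 resembled each other most: the chi-square per gene between them was 6.88 in TREM-1+ and 5.26 in TREM-1- libraries, and at least 20.6 between any other lavages. Nothing in the labels says that the pools came from separate groups of mice, so the p-values speak to variation among these pools alone. In bulk samples, fewer cells of a type and less RNA per cell cannot be told apart.

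Of the 10 regulators, 6 were called at an edgeR adjusted p below 0.05, beside 9.82% of all genes tested. Cebpb, Gata2, Spi1 and Cebpe were lower in TREM-1+ eosinophils (4 of 10, against 6.72% of all genes called lower) and Cebpa and Id2 higher (2 of 10, against 3.1% called higher). Within the C/EBP family, Cebpb (log2 fold change -0.64 ± 0.03, SE) and Cebpa (0.59 ± 0.18) changed in opposite directions. Cebpa had only 35 to 201 counts per library, and its call was lost without lavage 2, 5 or 6, among other settings. The main transcripts of the eosinophil programme, Cebpe, Gata1 and Spi1, differed by at most 0.16 on the log2 scale. The median log2 fold change of the 10 was -0.08, against 0.00 over all genes tested. The paired difference had one sign in all 6 lavages in 7 of the 10, against 13.4% of all genes: 2 were higher in every pair (5.08% of all genes) and 5 lower (8.31%). The lower ones were Cebpb, Cebpe, Gata1, Gata2 and Spi1. The eosinophil marker sum, of which Cd24a was the largest part, was lower in the same 6 pairs. Both directions are given at the scaling used here, and the part of eosinophil content in these differences was not tested. The 2 fractions did not overlap at all in 1 of the 10, Cebpb, against 0.951% of all genes.

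**Figure D1:**
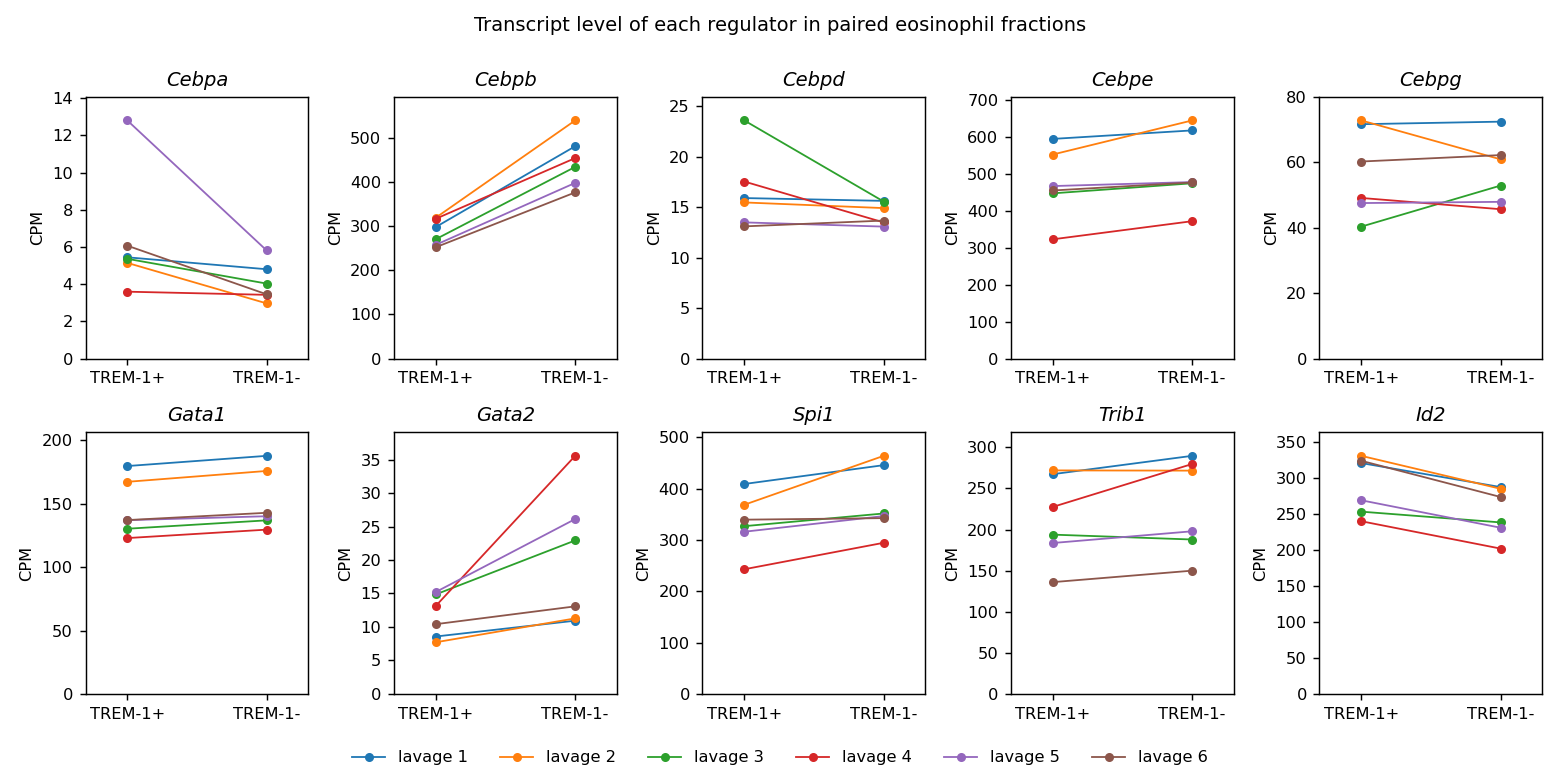
Scaled transcript level (CPM, axes from 0) of each regulator in the TREM-1+ and TREM-1- library of each lavage, 1 line per lavage. Cebpb lies at 253 to 319.7 CPM in all 6 TREM-1+ libraries and at 377 to 541 CPM in all 6 TREM-1- libraries; Gata1 lines are nearly flat.

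Cebpb encodes C/EBP-beta, the member of the family induced by cytokines and inflammatory signals and known for emergency granulopoiesis. In lavages 1 to 6 it stood at 299, 319.7, 271, 317, 258 and 253 CPM in TREM-1+ libraries. Their TREM-1- partners held 482, 541, 435, 455, 399 and 377 CPM. Every TREM-1+ library lay below every TREM-1- library. The mean was 286 ± 29.6 CPM in TREM-1+, against 448 ± 59.0 CPM in TREM-1- eosinophils (SD, n = 6 each). The log2 fold change came to -0.64 ± 0.03 (SE; edgeR, adjusted p = 1.42e-14), a level 36.0% lower, and only 5 of the 18302 genes, Trem1 among them, had a smaller p. Paired log2 differences lay between -0.76 in lavage 2 and -0.52 in lavage 4, which is a narrow spread for its size (SD 0.09). Cebpb was the only one of the 10 that was also called without pairing by lavage (log2 fold change -0.65, adjusted p = 0.00345).

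Cebpa encodes C/EBP-alpha, which starts the granulocyte programme in progenitors. It was the least abundant of the 10 in CPM, with 35 to 201 counts per library. TREM-1+ libraries of lavages 1 to 6 held 5.44, 5.14, 5.36, 3.59, 12.8 and 6.07 CPM. TREM-1- libraries held 4.80, 2.96, 4.03, 3.42, 5.81 and 3.45 CPM. Lavage 5 was the highest in both fractions, and the groups overlapped. Cebpa averaged 6.40 ± 3.24 CPM in TREM-1+, against 4.08 ± 1.06 CPM in TREM-1- eosinophils (SD, n = 6 each), and TREM-1+ exceeded TREM-1- in all 6 pairs (log2 fold change 0.59 ± 0.18, SE, edgeR adjusted p = 0.0264). The paired log2 difference ranged widely, from 0.07 in lavage 4 to 1.13 in lavage 5. The call was lost without lavage 2 (adjusted p = 0.0988), without lavage 5 (0.46, adjusted p = 0.179) and without lavage 6 (adjusted p = 0.0934), as well as in lavages 1 and 2 alone (adjusted p = 0.258) and in lavages 3 to 6 alone (adjusted p = 0.121).

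Neutrophils and macrophages also express Cebpa. Of 7 neutrophil markers tested, 5 were called higher in TREM-1+ libraries and 1 lower, although their summed level, most of it Retnlg, was 1030 to 1874 CPM in TREM-1+, against 1293 to 1902 CPM in TREM-1- libraries and lower in TREM-1+ in all 6 pairs. S100a9 averaged 97.5 CPM and S100a8 8.72 CPM in TREM-1+, against 37.3 CPM and 1.70 CPM in TREM-1- libraries. Ngp and Ltf, given with the described targets, were also higher, while Camp, Lcn2, Mmp8 and Stfa2l1 averaged below 1 CPM in both fractions. The alveolar macrophage list had 2 of 6 tested markers higher and 0 lower, with a summed level of 1202 to 1824 CPM in TREM-1+, against 1117 to 1567 CPM in TREM-1- libraries. That sum was higher in TREM-1+ in all 6 pairs and highest in lavage 5 in both fractions, as Cebpa was. It consisted largely of Itgax, Car4 and Chil3, while Marco averaged 0.148 CPM in TREM-1+, against 0.0549 CPM in TREM-1- libraries. Fabp4 averaged 0.0594 CPM in TREM-1+, against 0.167 CPM in TREM-1- libraries. The monocyte and interstitial macrophage list had 2 of 6 tested markers higher, Fn1 (69.3 CPM in TREM-1+, against 25.9 CPM in TREM-1- libraries) and Ccr2, and 1 lower, Ly6c2. Its sum was 644 to 1232 CPM in TREM-1+, against 735 to 1330 CPM in TREM-1- libraries, and higher in TREM-1+ in 1 of 6 pairs. The part of such cells in the Cebpa difference was not tested.

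The upstream sequence of these 2 genes is shown because they moved in opposite directions. The 250 bases before the annotated start are from RefSeq on build GRCm38.p6, for Cebpb chr2:167688665-167688914 and for Cebpa chr7:35119043-35119292, both on the plus strand, written 5′ to 3′. RefSeq promoters were matched for 6 of the 10 genes (7 promoters, as Gata2 has 2), and none was used for Cebpd, Cebpe, Spi1 or Trib1. Capitals mark matches on either strand to TGACG, the half-site bound by CREB and ATF factors, and to the letters TATAAA of the core promoter element. The other motifs searched on both strands were GATAA, which GATA factors bind, TTGCNNAA for C/EBP proteins, GAGGAA for PU.1 and the CCAAT box, and these had no match in the 2 windows.
Cebpb: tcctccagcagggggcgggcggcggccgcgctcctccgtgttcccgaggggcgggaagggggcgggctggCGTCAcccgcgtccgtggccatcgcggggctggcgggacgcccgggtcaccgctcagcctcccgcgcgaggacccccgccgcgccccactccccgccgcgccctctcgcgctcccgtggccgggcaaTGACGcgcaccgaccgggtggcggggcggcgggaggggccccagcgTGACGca
Cebpa: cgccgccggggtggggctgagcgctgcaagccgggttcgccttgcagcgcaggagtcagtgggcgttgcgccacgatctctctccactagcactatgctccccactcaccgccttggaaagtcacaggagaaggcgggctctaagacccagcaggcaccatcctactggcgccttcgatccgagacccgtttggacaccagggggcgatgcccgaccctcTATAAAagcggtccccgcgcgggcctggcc

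The Cebpb window held TGACG at positions -53 and -7 from the start and its reverse complement at -180, and no other of the 7 promoters held it, against 17.8% of 32851 promoters of the same length. The Cebpa window held TATAAA at -30, a match found in 12.4% of all promoters and in no other of the 7. CCAAT was found in 3 of the 7, one of the Gata2 promoters and those of Cebpg and Id2, against 33.8% of all. GAGGAA was found in 1 of 7, at -22 in Gata1, against 23.3% of all. GATAA (22.6% of all promoters) and TTGCNNAA (9.56% of all) were in 0 of the 7. The Cebpb window was 81.6% G and C, and the Cebpa window 66.4%. A match says only that these letters are present.

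Cebpe encodes C/EBP-epsilon, the late granulocyte factor. Its level varied more between lavages than between fractions. TREM-1+ libraries of lavages 1 to 6 held 595, 552, 447, 323, 467 and 455 CPM, and TREM-1- libraries 618, 645, 474, 372, 478 and 477 CPM. Each TREM-1+ library was slightly below its partner, and the groups overlapped. The mean was 473 ± 94.5 CPM in TREM-1+, against 510.5 ± 102 CPM in TREM-1- eosinophils (SD, n = 6 each), with a log2 fold change of -0.11 ± 0.03 (SE, edgeR adjusted p = 0.0299). This small difference was not called without lavage 1 (adjusted p = 0.0555), lavage 2 (0.142), lavage 4 (0.131) or lavage 6 (0.0598). It depended on how libraries were scaled: TREM-1+ libraries had larger scaling factors in all 6 pairs, and with library totals alone, which moved the median of all genes to 0.13, the log2 fold change of Cebpe was 0.02 (adjusted p = 0.842).

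Cebpd and Cebpg were not called. Cebpd, which like Cebpb responds to inflammatory signals, held 15.9, 15.5, 23.6, 17.6, 13.5 and 13.1 CPM in TREM-1+ libraries of lavages 1 to 6. The TREM-1- libraries held 15.6, 14.9, 15.6, 13.5, 13.1 and 13.7 CPM. The largest separation was in lavage 3, and the log2 fold change came to 0.17 ± 0.10 (SE; edgeR, adjusted p = 0.391, 95% interval -0.04 to 0.39). Cebpg, whose product pairs with other C/EBP proteins and lacks an activation domain of its own, ranged from 40.3 to 72.8 CPM in TREM-1+ and from 45.6 to 72.4 CPM in TREM-1- libraries. Its log2 fold change came to -0.01 ± 0.06 (SE; edgeR, adjusted p = 0.945, 95% interval -0.14 to 0.11), and it was higher in TREM-1+ in 2 of 6 lavages.

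**Figure D2:**
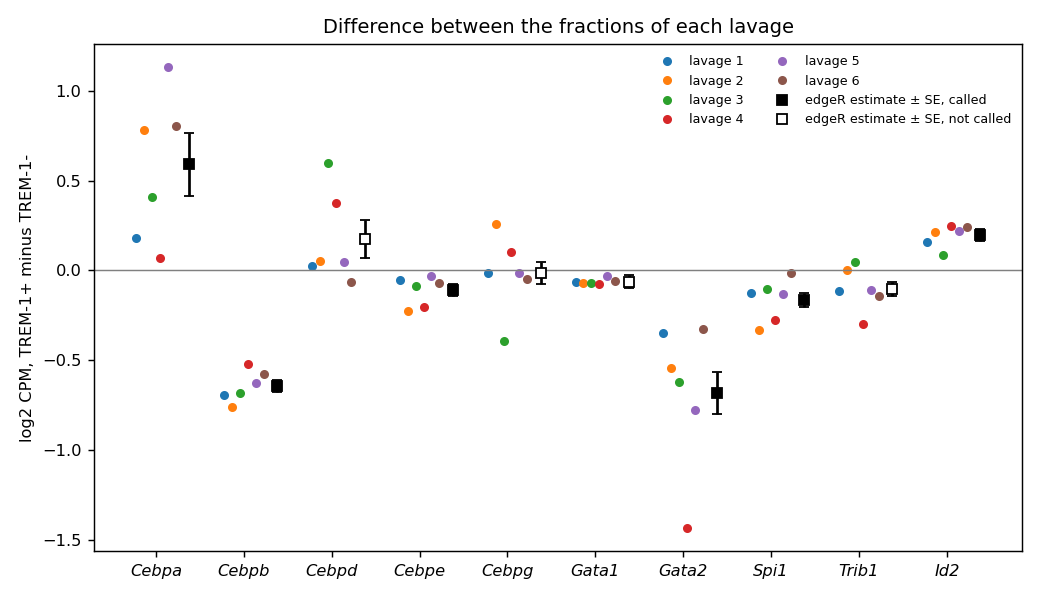
Paired difference in log2 CPM, TREM-1+ minus TREM-1-, for each regulator and lavage (coloured points), with the edgeR log2 fold change and its SE (squares, filled where called). Cebpb points sit between -0.76 and -0.52, those of Cebpa and Gata2 spread widely, and those of Gata1 lie between -0.08 and -0.03.

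Gata1 and Gata2 differed in both level and behaviour. Gata1 held 179.8, 167, 130.3, 123, 137 and 137 CPM in TREM-1+ libraries of lavages 1 to 6, and 188, 176, 137, 129.6, 140.2 and 143 CPM in TREM-1- libraries. It was lower in TREM-1+ in all 6 lavages by nearly the same small step (paired log2 differences -0.08 to -0.03). The edgeR test, which shares information on spread between genes, did not call it (log2 fold change -0.06 ± 0.04, SE, adjusted p = 0.375, 95% interval -0.14 to 0.01). With library totals alone its sign turned (0.06, adjusted p = 0.428).

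Gata2 held 8.57, 7.71, 14.9, 13.1, 15.2 and 10.4 CPM in TREM-1+ libraries of lavages 1 to 6. The TREM-1- libraries held 10.9, 11.3, 22.9, 35.6, 26.1 and 13.1 CPM. It was lower in the TREM-1+ fraction of every lavage, and lavages 1, 2 and 6 were low in both fractions, so that the groups overlapped. Gata2 averaged 11.7 ± 3.22 CPM in TREM-1+, against 20.0 ± 9.94 CPM in TREM-1- eosinophils (SD, n = 6 each), and its log2 fold change came to -0.68 ± 0.12 (SE; edgeR, adjusted p = 0.000105). Lavage 4 had the largest paired difference (-1.43), and without it the log2 fold change was -0.53 (adjusted p = 0.00213). In lavages 1 and 2 alone it was -0.43 and not called (adjusted p = 0.103). Among 5 tested markers of mast cells and basophils, which express Gata2, Cd200r3 was called lower in TREM-1+ libraries and Kit higher. The summed level of that list was 78.9 to 95.9 CPM in TREM-1+, against 73.3 to 100.7 CPM in TREM-1- libraries. The proteases Mcpt4 and Tpsb2 had 0 counts in every library, and Mcpt8, Cpa3 and Fcer1a averaged below 1 CPM in both fractions. Of 4 tested erythroid and megakaryocyte markers 0 were called. The part of mast cells and basophils in the Gata2 difference was not tested.

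Spi1 encodes PU.1, which sets myeloid fate and, by its dose, the choice between granulocytes and macrophages. TREM-1+ libraries of lavages 1 to 6 held 409, 369, 327, 243, 316 and 339 CPM, and TREM-1- libraries 446, 464, 352, 294, 346 and 342 CPM. The TREM-1+ library was the lower of each pair, by a margin that ran from almost none in lavage 6 to -0.33 on the log2 scale in lavage 2. The mean was 334 ± 55.7 CPM in TREM-1+, against 374 ± 66.0 CPM in TREM-1- eosinophils (SD, n = 6 each), with a log2 fold change of -0.16 ± 0.04 (SE, edgeR adjusted p = 0.00278). It was not called with library totals alone (-0.04, adjusted p = 0.645) or in lavages 3 to 6 alone (-0.13, adjusted p = 0.0745).

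Id2 and Trib1 are inhibitors that act on other regulators. Id2 held 320.3, 330.3, 253, 239.6, 269 and 323 CPM in TREM-1+ libraries of lavages 1 to 6 and 287, 285, 238, 202, 231 and 273 CPM in TREM-1- libraries. The TREM-1+ library was higher in every pair, although the groups overlapped. Id2 averaged 289 ± 40.1 CPM in TREM-1+, against 252 ± 34.4 CPM in TREM-1- eosinophils (SD, n = 6 each), and the log2 fold change came to 0.20 ± 0.03 (SE; edgeR, adjusted p = 0.000103). Innate lymphoid cells and T cells also express Id2. Of 9 markers of those cells tested, Gata3 among them, 7 were called higher and 0 lower in TREM-1+ libraries, at a summed level of 10.3 to 124.5 CPM in TREM-1+, against 8.78 to 64.1 CPM in TREM-1- libraries, higher in TREM-1+ in all 6 pairs. In lavages 1 and 2 those markers summed to 11.8 and 10.3 CPM in TREM-1+ and 9.60 and 8.78 CPM in TREM-1- libraries. With these 2 lavages alone, which resembled each other most, Id2 had a log2 fold change of 0.21 (edgeR adjusted p = 0.000234). Only 2 pairs enter that fit, and the labels do not say whether they are independent, so its p-value speaks to these pools alone. The part of lymphoid cells in the Id2 difference was not tested. Trib1 ranged from 136 to 272 CPM in TREM-1+ and from 150.0 to 289.7 CPM in TREM-1- libraries. It was higher in TREM-1+ in 2 of 6 lavages and was not called (log2 fold change -0.10 ± 0.04, SE, edgeR adjusted p = 0.108), except without lavage 3 (-0.13, adjusted p = 0.0370).

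**Figure D3:**
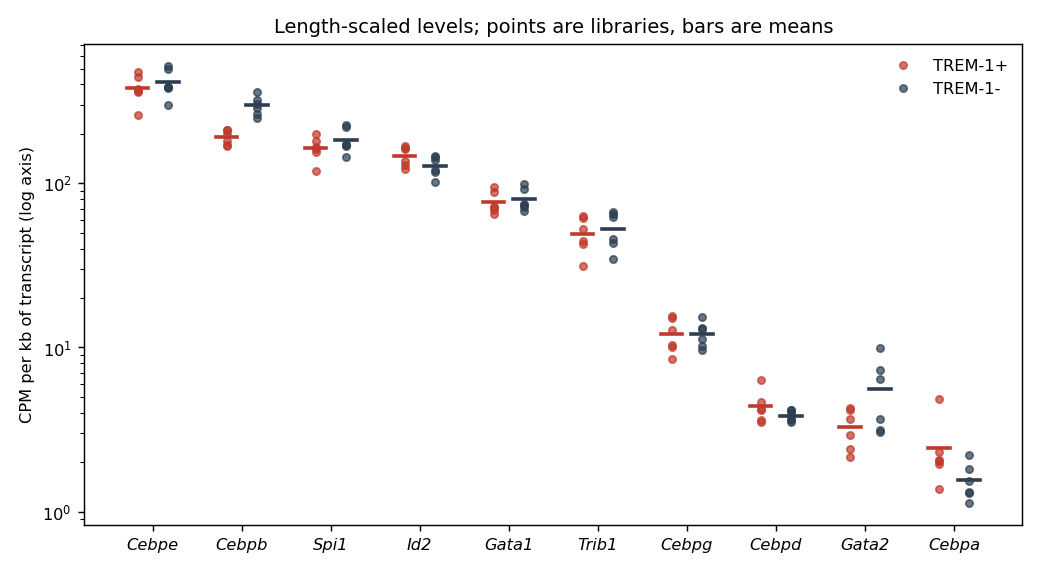
Level of each regulator per kilobase of its longest transcript (CPM per kb, log axis) in TREM-1+ (left, red) and TREM-1- (right, dark) libraries, with bars at the means of 6. Cebpe is the highest in both fractions at 381 and 411 CPM per kb, and Cebpa the lowest at 2.44 and 1.55 CPM per kb.

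Scaled for length, so that genes can be compared, Cebpe was the most abundant of the 10, with 381 ± 76.2 CPM per kb in TREM-1+ and 411 ± 82.3 CPM per kb in TREM-1- eosinophils (SD, n = 6 each). Cebpb came next, with 190.3 ± 19.7 CPM per kb in TREM-1+ and 298 ± 39.2 CPM per kb in TREM-1- eosinophils. In TREM-1+ libraries its range overlapped that of Spi1 (164 ± 27.4 CPM per kb), and in TREM-1- libraries it overlapped that of Cebpe and stood clear of that of Spi1 (184 ± 32.5 CPM per kb). Id2, Gata1 and Trib1 followed in both fractions, Gata1 at 76.7 ± 11.8 CPM per kb in TREM-1+ and 80.1 ± 12.5 CPM per kb in TREM-1- eosinophils, and the ranges of Spi1 and Id2 overlapped. Cebpg had about 12.1 CPM per kb in either fraction. Cebpd, Gata2 and Cebpa were lowest. Their ranges overlapped in TREM-1+ libraries, with Gata2 at 3.26 ± 0.90 CPM per kb, whereas in TREM-1- libraries Gata2 stood at 5.60 ± 2.78 CPM per kb and Cebpa, at 1.55 ± 0.40 CPM per kb, lay below the ranges of the other 9. These values use the longest GENCODE vM21 transcript of each gene, and which transcripts were expressed is unknown.

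In ratios of 2 regulators within a library the scaling cancels, apart from the prior count of 1 added to both. Of the 6 ratios computed, 3 set a gene that was lower in all 6 pairs over Cebpa, which was higher in all 6, so that their direction follows from the members and they are given without a test. The level of Cebpb was 52.3 ± 22.1 times that of Cebpa in TREM-1+ and 115 ± 37.2 times in TREM-1- eosinophils (SD, n = 6 each), a mean paired log2 difference of -1.20 (range -1.76 to -0.59). The mean paired log2 difference was -0.67 for Cebpe over Cebpa and -0.73 for Spi1 over Cebpa, which share Cebpa and its wide spread. Of the other 3 ratios, Gata2 over Gata1 and Trib1 over Cebpa were lower in TREM-1+ in all 6 pairs. That gives p = 0.0312, the smallest value open to 6 pairs in the exact sign-flip permutation test, two-sided, with adjusted p = 0.0469 over these 3 ratios and 0.0375 over all 6. The direction of both follows from the members as well, so these p-values add nothing to the single genes. Each paired log2 difference of Gata2 (-1.43 to -0.33) lay below each one of Gata1 (-0.08 to -0.03). Each one of Cebpa (0.07 to 1.13) lay above each one of Trib1 (-0.30 to 0.04). Trib1 over Cebpa had a mean paired log2 difference of -0.66. Gata2 over Gata1 was 0.0840 ± 0.0316 in TREM-1+ and 0.141 ± 0.0845 in TREM-1- eosinophils, with a mean paired log2 difference of -0.61 (range -1.36 to -0.27). Spi1 over Gata1 was 2.29 ± 0.19 in TREM-1+ and 2.45 ± 0.13 in TREM-1- eosinophils, lower in 5 of 6 lavages (exact sign-flip p = 0.0938, adjusted p = 0.0938).

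**Figure D4:**
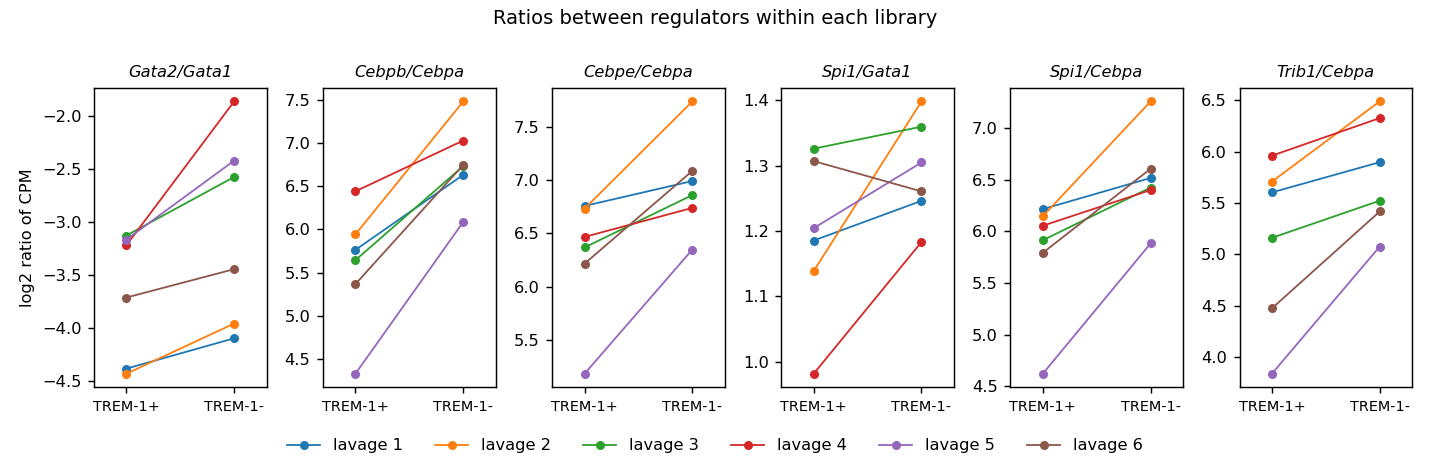
Log2 ratio of the CPM of pairs of regulators within the TREM-1+ and TREM-1- library of each lavage, 1 line per lavage; each panel has its own axis, which does not start at 0. The TREM-1+ library is the lower one in all 6 lavages in 5 panels and in 5 of 6 lavages for Spi1 over Gata1.

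Levels also varied between lavages. The mean of the 2 fractions, taken on the log2 scale, differed most in Cebpa, 2.44-fold between lavages 5 and 4, and Gata2, 2.31-fold between lavages 4 and 2. It differed least in Cebpb, 1.35-fold between lavages 2 and 6. Cebpe, Cebpg, Gata1, Spi1 and Trib1 were highest in lavage 1. Cebpa, Cebpe, Gata1, Spi1 and Id2 were lowest in lavage 4, where Gata2 was highest. Lavage 4 also had the smallest summed level of eosinophil markers in both fractions. The annotated spans of some members, introns included, overlap that of a gene on the other strand, whose reads may not be separated. Whether the transcripts themselves share sequence was not examined. The library kit keeps strand, but whether counting used it is not stated in the labels. Cebpb overlaps Peds1, Cebpd overlaps Spidr and Cebpg overlaps Gm45095, with log2 fold changes of 0.01 ± 0.05, -0.01 ± 0.08 and 0.10 ± 0.08 (SE, edgeR adjusted p = 0.953, 0.974 and 0.613). Peds1 had 17186 counts over the 12 libraries, beside 75708 of Cebpb. Cebpa, with 1063 counts over the 12 libraries, overlaps the antisense gene Gm45091, for which no counts were matched.

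Genes with the most similar profile to each called regulator were found by the root mean square difference of centred log2 CPM over the 12 libraries, among 10957 genes of at least 5 CPM. That distance includes the difference between fractions, so a near gene tends to share it. The changes of the near genes therefore add no evidence of their own. For Cebpb these were Gm54222 (0.14) and Siglecg (0.14), which encodes an inhibitory lectin and had a log2 fold change of -0.61 ± 0.04 (SE, edgeR adjusted p = 6.40e-12). For Gata2 they were AY036118 (0.24), which was not called (log2 fold change -0.31 ± 0.20, SE, edgeR adjusted p = 0.514), and Cd200r3 (0.27), a basophil and mast cell marker with a log2 fold change of -0.81 ± 0.13 (SE, edgeR adjusted p = 2.31e-05). Cebpe was closest to Gapt and Aldoa (both 0.04), Spi1 to Cap1 (0.04) and Brk1 (0.05), and Id2 to Tmem106b and Hmgn2 (both 0.08). For Cebpa, the nearest were Mapkbp1 (0.32) and Ccdc8 (0.33), which were far in comparison.

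Partners and relatives of these regulators went both ways. Over 6 lists with 74 tested genes, 16 were called higher and 20 lower, beside 3.1% higher and 6.72% lower among all genes tested; the lists were chosen with earlier results of these data known. Among 12 tested partners of GATA factors, 3 were lower and 2 higher (median log2 fold change -0.01). Lmo2 and Lyl1, an adaptor and a helix-loop-helix factor of the GATA complex of progenitors, fell: Lmo2 averaged 41.3 ± 11.1 CPM in TREM-1+, against 59.6 ± 13.0 CPM in TREM-1- eosinophils (SD, n = 6 each; log2 fold change -0.54 ± 0.06, SE, edgeR adjusted p = 2.86e-08). Lyl1 had 120.7 to 136 CPM in TREM-1+, against 139.8 to 181 CPM in TREM-1- libraries, without overlap (-0.35 ± 0.04, adjusted p = 4.72e-08). Fli1, an ETS factor, fell (-0.23 ± 0.04), a call lost with library totals alone (-0.10, adjusted p = 0.146), and Lmo4 rose (0.21 ± 0.03). Gata3, the other partner called higher, is also on the list of T and innate lymphoid cell markers (0.74 ± 0.21, adjusted p = 0.0166; higher in 4 of 6 pairs). Its call was lost without lavage 3, 4, 5 or 6 (adjusted p 0.0641 to 0.0930), without lavages 3 and 4 (0.213) and from lavages 1 and 2 alone (-0.0192, adjusted p = 0.990), and the count of partners called higher was then 1. Zfpm1, which encodes the GATA-1 cofactor FOG-1, had 44.5 CPM in TREM-1+, against 41.6 CPM in TREM-1- eosinophils and was not called.

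Among 14 tested partners of PU.1 and other ETS factors, 4 were higher and 4 lower (median 0.01). Ets1 (log2 fold change 0.32 ± 0.04, SE), Jun (0.25 ± 0.04) and Egr2 (0.16 ± 0.04) rose, and Elf1 (-0.28 ± 0.04), Egr1 (-0.27 ± 0.04) and Elf4 (-0.18 ± 0.03) fell, with edgeR adjusted p-values from 2.34e-06 for Ets1 to 0.00356 for Egr2. With library totals alone 4 of this list were higher and 0 lower. Egr2 was not called from lavages 1 and 2 alone (0.07, adjusted p = 0.532), nor when lavages 3 and 4 were left out (0.13, adjusted p = 0.0845). Irf4, a lymphoid partner of PU.1, had the largest change of the list, with 2.98 CPM in TREM-1+, against 1.32 CPM in TREM-1- eosinophils (1.40 ± 0.38, adjusted p = 0.0142; higher in 6 of 6 pairs). That call was lost without lavage 3 (1.06, adjusted p = 0.0726), without lavage 5 (adjusted p = 0.0520) and without lavages 3 and 4 (adjusted p = 0.0598). Irf8, a partner of PU.1 in macrophages, stood at 1.76 CPM in TREM-1+, against 0.879 CPM in TREM-1- eosinophils and was not called.

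Of 4 tested ID and E proteins, Id1 was called, and it moved against Id2. Id1 had 86.2 to 97.0 CPM in TREM-1+, against 121 to 136 CPM in TREM-1- libraries, without overlap (log2 fold change -0.49 ± 0.04, SE, edgeR adjusted p = 2.09e-10). The E protein genes Tcf3, Tcf4 and Tcf12 were not called, with log2 fold changes of 0.11, 0.09 and 0.02. Of 13 tested C/EBP partners and relatives 1 was higher, Batf3 (0.65 ± 0.11, adjusted p = 8.25e-05), and 1 lower, Tef (-0.23 ± 0.07, adjusted p = 0.0425), a call lost with DESeq2 (adjusted p = 0.0516), with library totals alone (-0.10, adjusted p = 0.474) and without lavage 1, 2, 5 or 6 (adjusted p 0.129 to 0.181) or from lavages 3 to 6 alone (adjusted p = 0.428). Batf3 was not called from lavages 1 and 2 alone (0.38, adjusted p = 0.0561). Of 4 tested markers of dendritic cells, which also express Batf3, 0 were called, and their list summed to 15.5 to 27.5 CPM in TREM-1+, against 14.2 to 21.1 CPM in TREM-1- libraries, higher in TREM-1+ in all 6 pairs. Cop1, the ligase that acts with TRIB1, had 124.5 CPM in TREM-1+, against 122 CPM in TREM-1- eosinophils and was not called.

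Among 14 other regulators named in eosinophil development, 3 were higher and 5 lower. Xbp1, a factor of the secretory pathway needed for eosinophil maturation in mice, averaged 234 ± 40.6 CPM in TREM-1+, against 297 ± 54.1 CPM in TREM-1- eosinophils (log2 fold change -0.34 ± 0.03, SE, edgeR adjusted p = 7.04e-09). Ahr (-0.37 ± 0.03) and Bhlhe40 (-0.21 ± 0.03, not called with library totals alone, adjusted p = 0.197) also fell. Bcl6 (0.48 ± 0.10), Bach2 (0.36 ± 0.10) and Ikzf3 (0.16 ± 0.03), the gene of Aiolos, rose. Bach2 was not called without lavage 1, 3 or 5 (adjusted p = 0.0640, 0.136 and 0.0728) or in lavages 1 and 2 (0.297) or 3 to 6 (0.0865) by themselves, and Ikzf3 not in lavages 1 and 2 by themselves (adjusted p = 0.103). Lymphocytes also express Bcl6, Bach2, Ikzf3, Ets1 and Irf4, and 7 of 9 markers of T and innate lymphoid cells were higher in TREM-1+ libraries, as given beside Id2. In lavages 1 and 2 alone, Bcl6 (0.45, edgeR adjusted p = 0.0285) and Ets1 (0.24, adjusted p = 0.00253) were called, while Bach2 and Ikzf3 were not. Only 2 pairs enter that fit, the ones that resembled each other most, and the labels do not say whether they are independent. The part of lymphoid and dendritic cells in these differences was not tested.

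**Figure D5:**
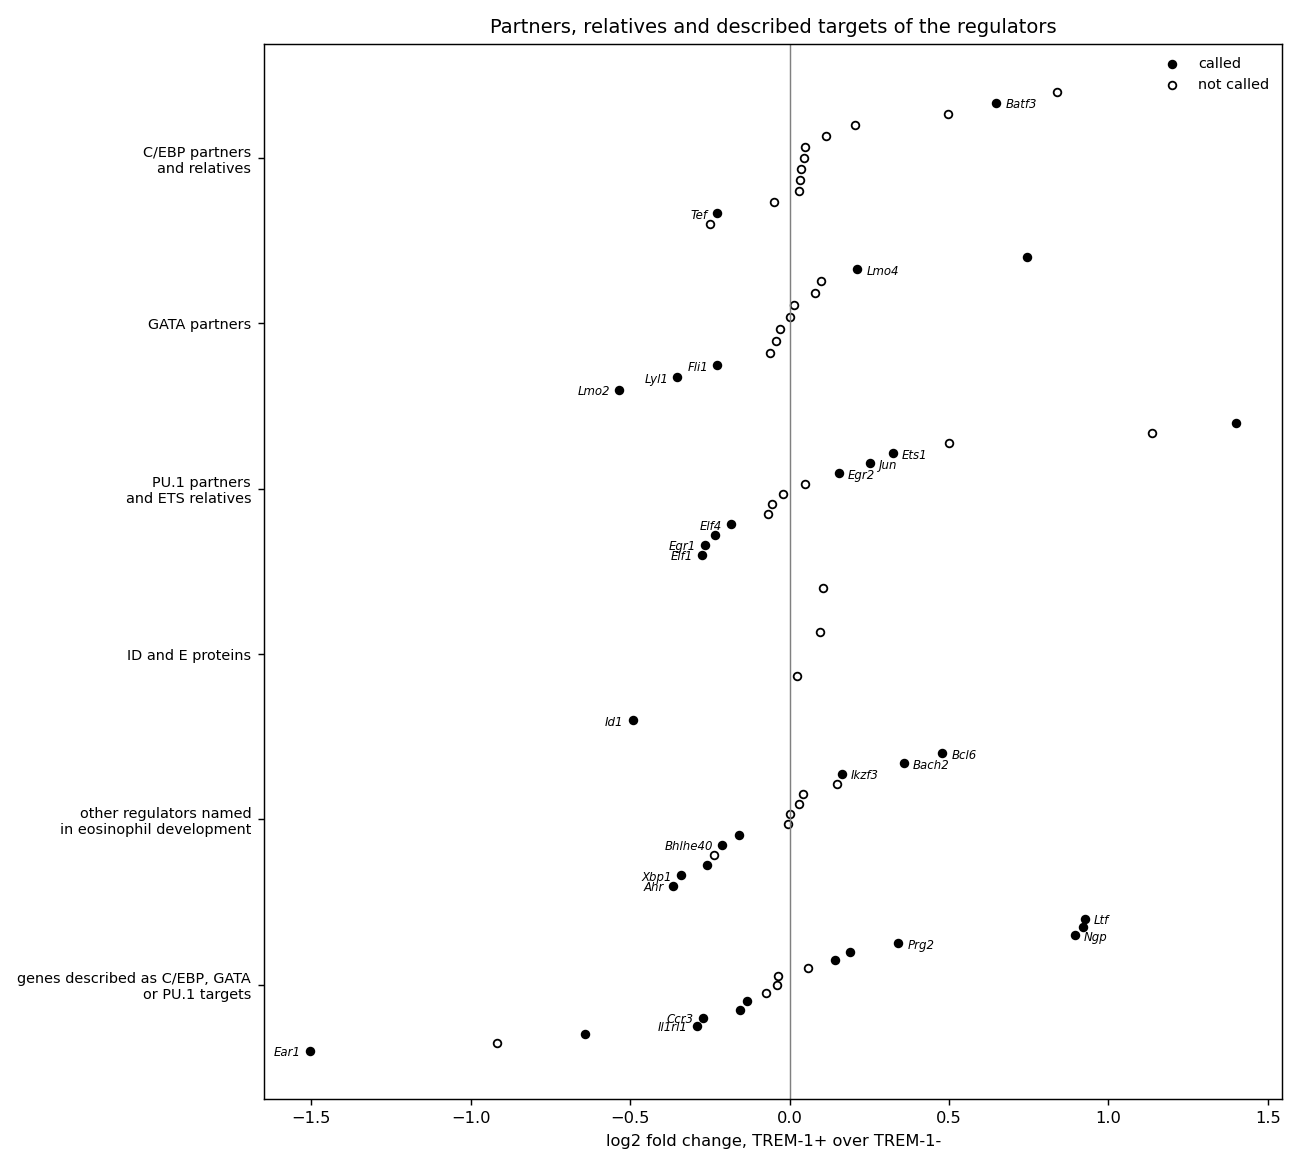
Log2 fold change, TREM-1+ over TREM-1-, of each tested gene in 6 lists of partners, relatives and described targets (filled points were called), spread vertically within a list by rank. Named genes include Lmo2 at -0.54, Id1 at -0.49 and Ngp at 0.89.

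Genes described as targets of C/EBP, GATA or PU.1 factors went both ways, with 6 of 17 tested higher and 6 lower (median log2 fold change -0.04). The counts were 5 higher and 8 lower with DESeq2, 4 and 7 from lavages 1 and 2 alone, and 6 and 3 from lavages 3 to 6 alone. Several of these genes are also on the eosinophil marker list and were counted there too. They are Ccr3, Il1rl1, Il5ra, Prg3 and Siglecf, all called lower, Alox15 and Prg2, both called higher, and Epx, not called. Ngp and Ltf, neutrophil secondary granule genes that depend on Cebpe in mice, rose, whereas Cebpe was slightly lower. Ltf had 14.7 to 23.8 CPM in TREM-1+, against 5.07 to 11.7 CPM in TREM-1- libraries (log2 fold change 0.93 ± 0.12, SE, edgeR adjusted p = 1.19e-06), and Ngp averaged 46.8 ± 13.5 CPM in TREM-1+, against 25.4 ± 8.45 CPM in TREM-1- eosinophils (0.89 ± 0.07, adjusted p = 1.58e-11). Both are also on the neutrophil list above, and the part of neutrophils in these values was not tested. Prg2, the gene of major basic protein and a target of GATA-1 and C/EBP factors, rose (0.34 ± 0.03). The ribonuclease gene Ear1 (-1.50 ± 0.16, whose reads may be shared with close copies, and which was not called from lavages 3 to 6 alone, adjusted p = 0.0950), Il1rl1 (-0.29 ± 0.03) and Ccr3 (-0.27 ± 0.03) fell. Of the other Ear genes on this list, Ear6 was called higher (0.14 ± 0.05, edgeR adjusted p = 0.0471). Ear2 was not called (-0.92 ± 0.21, edgeR adjusted p = 0.0505). The myeloid genes Itgam and Csf1r, described targets of PU.1, averaged 2499 and 214.7 CPM in TREM-1+ and 2569 and 220.4 CPM in TREM-1- eosinophils and were not called.

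Entrez identifiers in the authors' files are 12606 for Cebpa, 12608 for Cebpb, 12609 for Cebpd, 110794 for Cebpe, 12611 for Cebpg, 14460 for Gata1, 14461 for Gata2, 20375 for Spi1, 211770 for Trib1 and 15902 for Id2.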

How the data were processed

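The authors deposited an estimated count per gene and library, whole numbers in the file, and a table of log2 CPM; per the submitters' processing notes the tools were kallisto 0.45.0, R 4.3.0 and edgeR 3.42.4 with build GRCm39, with no roles stated. Annotation and use of strand are not given in the sources used here. Counts were rounded before use, which changed nothing. Recomputing the deposited log2 CPM from the counts of its 17934 genes gave the values to within 5e-09. The test was the robust quasi-likelihood F test of edgeR 4.0.16 (R 4.3.3), with lavage as a block, TMM scaling and filterByExpr at a minimum count of 10 and minimum total of 15; calls had a Benjamini-Hochberg adjusted p below 0.05 over all genes. The fit was tested on simulated data. SE and intervals derive from the F statistic. Log2 CPM had 1 as prior count. Alternatives included limma 3.58.1 and DESeq2 1.42.0, other scaling, no filter, no block and subsets of lavages. Relative counting error was largest for the low genes Cebpa, Gata2 and Cebpd. Of the per-sample columns, 0 were unused.

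Alternatives on lists and their genes were chosen after seeing the data. The series design text gives the pairing. Deviations from group means correlated within pairs at 0.127 to 0.502, and 5 of 6 TREM-1+ libraries correlated best with their own partner. Members, lists and tests were chosen with earlier results of these data known. From each list, up to 3 called genes each way with the smallest p and at least 5 CPM are named, with the 2 nearest profiles of each called member. Gata3, Irf4 and the genes without a call were named for their role after values were seen. Ear6, Alox15, Il5ra, Prg3 and Siglecf were named after values were seen, for kinship with Ear1 or for overlap between lists.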

Additional observations from a re-analysis of the deposited data

Results flagged for a closer look

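Of 36 sets of 6 values examined (levels of the 10 regulators in each fraction, their paired differences and the 6 ratio differences), 1 held a value far from the other 5. Cebpa in the TREM-1+ library of lavage 5 stood at 12.8 CPM, against 3.59 to 6.07 CPM in the other TREM-1+ libraries, and the gap to its nearest neighbour was 0.731 of the whole range, above the critical value of 0.625. Chance alone flags about 1 in 20 such sets.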

How the results depend on the processing

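With RLE size factors, no filter on low counts, DESeq2 or limma-voom, all 10 regulators kept their direction and their side of the threshold, 2 called higher and 4 lower each time. With library totals alone, 1880 genes were called higher and 376 lower (16.7% lower, against 68.4% with TMM), and the log2 fold change was 0.0165 for Cebpe, 0.11 for Cebpg, 0.0644 for Gata1 and 0.0259 for Trib1, all with the sign turned, and -0.0364 for Spi1, no longer called. With the same scaling, 5 C/EBP partners were higher and 0 lower, 4 GATA partners higher and 2 lower, and 4 other regulators higher and 2 lower. Without the pairing by lavage (no block), 27 genes were called higher and 56 lower. Of the regulators only Cebpb (-0.65) was then called; the values without the block were 0.65 for Cebpa, -0.11 for Cebpe, 2.25e-05 for Cebpg, -0.78 for Gata2, -0.16 for Spi1 and 0.20 for Id2, and the ratios Gata2 over Gata1 (-0.61) and Trib1 over Cebpa (-0.66) missed the threshold. Lavages 1 and 2 alone gave 0.48 for Cebpa, -0.12 for Cebpe and -0.43 for Gata2, none called, as well as 0.14 for Cebpg and -0.0192 for Gata3. Lavages 3 to 6 alone gave 366 genes higher and 802 lower, with Cebpa (0.64), Cebpe (-0.10) and Spi1 (-0.13) not called. Without lavages 3 and 4, 347 genes were higher, Cebpe (-0.0950) was not called and Cebpg was 0.0475. The ratio differences were then -0.44 for Gata2 over Gata1, -1.39 for Cebpb over Cebpa, -0.82 for Cebpe over Cebpa, -0.87 for Spi1 over Cebpa and -0.82 for Trib1 over Cebpa. Leaving out each lavage in turn gave 0.46 to 0.68 for Cebpa, -0.12 to -0.0889 for Cebpe, -0.0727 to 0.0574 for Cebpg and -0.13 to -0.0614 for Trib1, while Cebpb, Gata2, Spi1 and Id2 were called each time. The ratio differences ranged from -0.68 to -0.46 for Gata2 over Gata1, -1.33 to -1.09 for Cebpb over Cebpa, -0.76 to -0.58 for Cebpe over Cebpa, -0.81 to -0.62 for Spi1 over Cebpa and -0.74 to -0.55 for Trib1 over Cebpa. With 5 pairs the exact test cannot go below 0.0625, so the lost calls of ratios say nothing of their stability. Cebpa had the fewest counts of the 10, 35 to 201 per library, and so the largest relative counting error. The causes of lost calls were not tested.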
